A study of Mus musculus with 4 samples.

Results

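Some transcript clusters of a gene-level array summary carry more than 1 gene symbol, so that a single intensity stands for several genes. On the exon arrays of this study, 1019 of 23332 gene-level clusters were of this kind. They were found by taking every cluster whose platform annotation held at least 2 symbols, and no intensity was used to choose them. They stood beside 14996 clusters with 1 symbol. The cells were NMuMG, an established line of normal mouse mammary gland epithelium. Cells received recombinant human TGF-beta1 at 1 ng/ml for 24 h or were left untreated. TGF-beta1 is a secreted factor known for turning epithelial cells mesenchymal. Both grew in medium with serum and insulin. Each condition had 1 array, summarised by the authors both per gene and per exon-level probeset, so no difference below has a replicate check and no p-value was computed. Precision is limited by that number of arrays.

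Mammalian genes often share sequence with relatives that arose by duplication, called paralogs, and with processed copies of their own transcript, called pseudogenes. Genes that lie side by side can also overlap or share a transcript. A short array probe that matches several such genes measures the sum of their RNA, whereas a probe over a stretch that only 1 of them carries can tell them apart. Exon arrays hold both kinds of probe.

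Differences are given as TGF-beta minus untreated on the log2(intensity + 1) scale, and a cluster was called higher or lower when it reached 1 in size, a 2-fold change. A cluster counted as at level if its brighter array reached the median of all gene-level values, 124; the same rule at exon level was 265. The 1019 clusters listed 1931 distinct genes. Exactly 2 symbols were listed by 776 of them, and 4 clusters of histone H4 genes listed 13 each. By symbols, 546 clusters held paralogs, 263 held neighbouring genes that were not paralogs (at most 5 places apart on a chromosome), 173 held other combinations, and in 37 all the symbols now belong to a single gene.

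The line was set beside its defining markers. Of 5 epithelial markers measured, 3 were at level. Cdh1, the adhesion molecule E-cadherin, had an intensity of 1698 in TGF-beta-treated cells and 4153 in untreated cells, and the simple-epithelial keratin Krt18 had 9785 and 8494. Krt19, another simple-epithelial keratin, had 578 and 4612. Epcam and Cldn7 were below level on both arrays. The summed intensity of the epithelial list was 12216 in TGF-beta-treated cells and 17417 in untreated cells. Among the markers of other cell types, 2 of 5 fibroblast, 1 of 4 leukocyte, 1 of 3 adipocyte and 0 of 4 endothelial genes were at level. The summed intensity of the fibroblast list was 724 in TGF-beta-treated cells and 431 in untreated cells. Their part in the results below was not tested. In bulk RNA, fewer cells of a type and less RNA per cell cannot be told apart.

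Promoter windows show how alike some of the paralogs are outside their transcripts; they are not the targets of the probes, which were not analysed here. The 4 pairs shown are paralogs from the 10 clusters with the largest differences whose windows resembled each other. A pair of those clusters that did not, Tuba1a and Tuba1c, was identical at 50.1% of the alignment, the level of pairs with unlike names. Each window spans the start site of the gene in RefSeq on build GRCm38.p6, 5′ to 3′ on the strand of the gene. Capitals mark the bases without an identical partner when both windows of a pair were aligned end to end. Lce1g, at chr3:92752289-92752588 (minus strand), and Lce1c, at chr3:92678997-92679296 (plus strand), code for late cornified envelope proteins and were identical at 71.3% of the alignment.
Lce1g: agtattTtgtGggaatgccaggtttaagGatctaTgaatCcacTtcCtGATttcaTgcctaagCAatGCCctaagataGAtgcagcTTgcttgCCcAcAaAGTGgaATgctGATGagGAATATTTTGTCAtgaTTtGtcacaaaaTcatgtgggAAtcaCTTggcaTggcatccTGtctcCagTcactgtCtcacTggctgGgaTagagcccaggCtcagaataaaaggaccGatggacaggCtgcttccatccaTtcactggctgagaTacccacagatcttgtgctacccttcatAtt
Lce1c: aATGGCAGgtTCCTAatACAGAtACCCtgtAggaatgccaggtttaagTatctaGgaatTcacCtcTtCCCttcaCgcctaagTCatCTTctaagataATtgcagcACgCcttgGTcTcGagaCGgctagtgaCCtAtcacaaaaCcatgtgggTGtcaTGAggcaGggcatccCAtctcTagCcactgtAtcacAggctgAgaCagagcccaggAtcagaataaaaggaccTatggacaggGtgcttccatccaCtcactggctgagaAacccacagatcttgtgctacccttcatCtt

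Serpinb9e, at chr13:33249358-33249657 (plus strand), and Serpinb9g, at chr13:33484540-33484839 (plus strand), belong to the intracellular serpins, inhibitors of serine proteases. Their windows were identical at 93.4% of the alignment.
Serpinb9e: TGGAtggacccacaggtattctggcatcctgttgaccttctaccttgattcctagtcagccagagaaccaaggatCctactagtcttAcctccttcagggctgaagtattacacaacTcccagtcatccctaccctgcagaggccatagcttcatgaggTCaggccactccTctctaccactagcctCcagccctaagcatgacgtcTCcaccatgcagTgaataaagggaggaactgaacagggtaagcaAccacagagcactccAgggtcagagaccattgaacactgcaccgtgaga
Serpinb9g: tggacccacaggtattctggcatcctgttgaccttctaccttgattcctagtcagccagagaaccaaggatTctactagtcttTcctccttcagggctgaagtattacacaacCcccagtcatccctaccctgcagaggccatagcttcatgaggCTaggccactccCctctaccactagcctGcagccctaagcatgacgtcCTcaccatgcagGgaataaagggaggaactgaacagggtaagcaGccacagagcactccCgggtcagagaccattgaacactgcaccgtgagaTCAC

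Apol9b, at chr15:77728871-77729170 (plus strand), and Apol9a, at chr15:77410985-77411284 (minus strand), are apolipoprotein L genes. Their windows had no mismatch where they overlapped: all 19 capitals of a window stand at its end, because the annotated starts are offset from each other.
Apol9b: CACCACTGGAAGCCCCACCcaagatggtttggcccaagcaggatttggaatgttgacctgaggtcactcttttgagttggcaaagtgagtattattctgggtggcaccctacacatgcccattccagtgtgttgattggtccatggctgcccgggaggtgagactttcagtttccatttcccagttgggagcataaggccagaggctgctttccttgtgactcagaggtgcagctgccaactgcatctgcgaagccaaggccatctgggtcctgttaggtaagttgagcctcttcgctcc
Apol9a: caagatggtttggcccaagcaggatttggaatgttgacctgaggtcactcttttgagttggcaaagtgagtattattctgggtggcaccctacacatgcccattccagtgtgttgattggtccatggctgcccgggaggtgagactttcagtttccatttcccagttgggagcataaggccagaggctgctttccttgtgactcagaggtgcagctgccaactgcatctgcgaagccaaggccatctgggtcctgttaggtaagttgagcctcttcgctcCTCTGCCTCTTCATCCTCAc

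Ctla2a, at chr13:60936576-60936875 (minus strand), and Ctla2b, at chr13:60897398-60897697 (minus strand), code for small proteins related to the inhibitory propeptide of cathepsins. Their windows were identical at 79.5% of the alignment.
Ctla2a: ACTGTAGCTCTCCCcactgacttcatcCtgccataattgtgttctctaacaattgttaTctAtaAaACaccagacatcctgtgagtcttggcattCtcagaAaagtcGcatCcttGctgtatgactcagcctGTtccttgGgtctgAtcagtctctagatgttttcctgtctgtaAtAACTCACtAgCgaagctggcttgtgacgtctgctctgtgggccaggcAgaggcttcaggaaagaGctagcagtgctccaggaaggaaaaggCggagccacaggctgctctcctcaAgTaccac
Ctla2b: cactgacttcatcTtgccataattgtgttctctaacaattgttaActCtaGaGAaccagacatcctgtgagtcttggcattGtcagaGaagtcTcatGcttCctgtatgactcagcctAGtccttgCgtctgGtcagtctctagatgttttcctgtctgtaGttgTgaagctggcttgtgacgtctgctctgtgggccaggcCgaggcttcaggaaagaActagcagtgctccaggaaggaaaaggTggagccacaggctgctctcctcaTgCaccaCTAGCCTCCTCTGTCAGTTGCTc

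Across the 68 clusters chosen for description, 159 pairs of paralogs had windows to compare, with a median identity of 51.4%. They ranged between 41.6% and the 99% of the histone genes H4c17 and H4c18. The 36 pairs of genes with unlike names had a median of 50.4%. Short motifs were searched for on both strands. The letters CAGAC, a core of SMAD-binding elements, stood in both Ctla2 windows and in none of the other 6 printed here, beside 49.6% of all 32851 RefSeq windows. TATAAA stood in the Ctla2a window and in 13.6% of all windows. CCAAT stood in both Apol9 windows and in 37.4% of all windows. These are matches of letters and not measured binding sites.

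Fewer clusters of several genes than of 1 gene were at level: 425 of 1019 (41.7%), beside 61.6% of the single-symbol clusters. The share was lowest for paralogs (24.9%) and highest for neighbours (66.2%). Of 110 olfactory receptor (Olfr) clusters 7 were at level, and of 29 vomeronasal receptor (Vmn) clusters 0, beside 20 of 719 and 1 of 82 single-symbol clusters of those families. None of the multi-gene clusters of interferon alpha, natural killer lectin-like receptor (Klra) or trace amine receptor (Taar) genes were at level. Of their single-symbol clusters, 0 of 4 interferon alpha, 0 of 2 Klra and 2 of 8 Taar clusters were. Both of these Taar clusters were at least 2-fold higher after TGF-beta. By contrast, 16 of 19 histone clusters, 7 of 8 Rpl and 6 of 6 Rps clusters of ribosomal protein genes were at level.

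After TGF-beta, 10 of the 425 clusters at level were called higher, 47 were called lower and 368 lay within 2-fold. Of all 12484 clusters at level, 2.21% were higher and 9.88% lower, so the shares among the multi-gene clusters (2.35% and 11.1%) lay near those of all clusters. The median difference was -0.31, beside -0.27 over all clusters at level. Higher ones were 17.5% of the clusters called. That share became 40.5% when every difference was centred on the median of all clusters at level, 35.9% after quantile normalization and 30% after a lowess trend was removed, and in all clusters at level it was 18.3% as deposited and 44.4% centred. Directions are therefore relative to an overall shift of -0.27.

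By class, 7 of 136 paralog clusters at level were higher (5.15%) and 20 lower (14.7%), with a median of -0.38. Of 174 neighbour clusters, 2 were higher (1.15%) and 11 lower (6.32%), with a median of -0.27. The 97 other combinations held 1 higher (1.03%) and 14 lower (14.4%), with a median of -0.34. Over all clusters at level the shares were 2.21% and 9.88%. The 18 clusters of a single current gene held 0 higher and 2 lower. Centred, paralogs held 10 higher and 13 lower with a median of -0.11, beside 516 higher and 646 lower of all 12484 clusters. Centred neighbours held 4 higher and 3 lower with a median of 0.00064, so that their balance turned, and the other combinations 1 and 5. The median also differed with the number of genes listed: it was -0.27 for 335 clusters of 2 genes, -0.42 for 51 clusters of 3 or 4, and -0.61 for 21 clusters of 5 or more, of which histone genes made up the largest group.

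**Figure D1:**
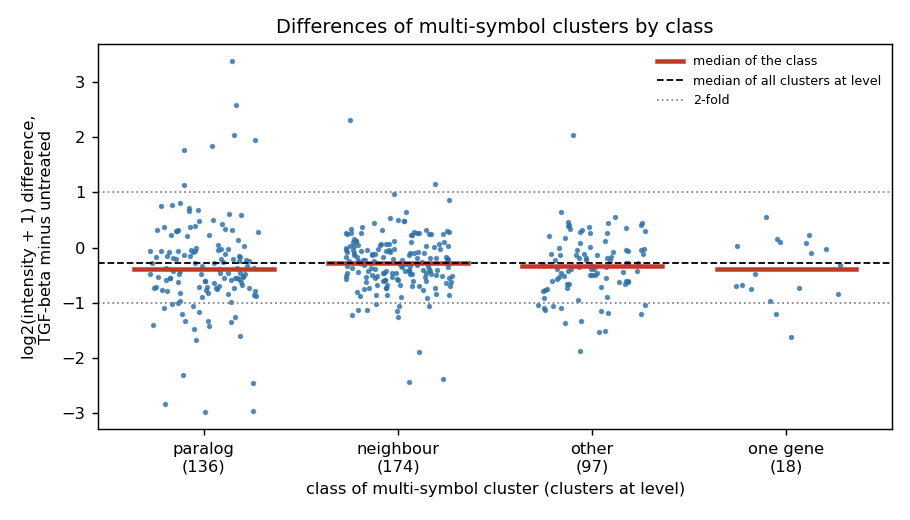
Log2(intensity + 1) differences, TGF-beta minus untreated, of the 425 multi-symbol clusters at level, 1 point each, by class. The class medians lie between -0.39 and -0.27, near the dashed median of all clusters at level, and the paralog class holds both the highest point (3.37) and the lowest (-2.97).

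Of the 10 largest differences 7 belonged to paralog clusters, and of the 10 smallest 6 did. In 7 of the 10 highest clusters the untreated intensity was below the level rule, and in 9 of the 10 lowest the TGF-beta intensity was. The size of such a difference is uncertain, since 1 side of it is a dim value. With the level rule required on both arrays, 3 of 357 clusters were called higher and 25 lower, beside 182 and 713 of all 10848.

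The largest difference was in the Lce1g/Lce1c cluster, with an intensity of 324 in TGF-beta-treated cells and 30.4 in untreated cells, a difference of 3.37. Late cornified envelope proteins are cross-linked beneath the membrane of the outermost skin cells. At exon level both genes could be followed. The probesets with the symbol Lce1g had 4275 and 324 in TGF-beta-treated cells, against 378 and 30.4 in untreated cells. The second of them is the cluster's own pair of values. The 2 Lce1c probesets at level had 2052 and 2924 in TGF-beta-treated cells, against 169 and 587 in untreated cells, so both genes were higher by probesets that name only them. Another Lce1c probeset was dim, with 28.9 after TGF-beta and 63.8 untreated, and the single-symbol Lce1c cluster holds the same values. The brightest signal of the pair, 5182 after TGF-beta and 542 untreated, came from the 1 probeset shared by both.

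The serpins followed. A cluster led by Serpinb9e had 143 after TGF-beta and 22.9 untreated (2.59), and a second one with the same 4 genes, led by Serpinb9g, had 322 and 77.8 (2.04). Probesets of Serpinb9e alone had a median difference of 2.59 ± 1.13 (SD between 3 probesets at level, all higher). The single Serpinb9g probeset at level carried the exact values of the second cluster, and no single-symbol probeset of Serpinb9f or Serpinb9d was at level. Relatives with clusters of their own were also above 0: Serpinb9b had 1847 after TGF-beta and 791 untreated (1.22), and Serpinb9, an inhibitor of granzyme B, had 856 and 470 (0.86). Of the 6 single-symbol Serpinb clusters at level, Serpinb5, the mammary serpin maspin, was the 1 called lower, with 369 and 1041 (-1.49).

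Klhl30/Espnl, a pair of neighbours, had 344 after TGF-beta and 68.7 untreated (2.31). Klhl30 is a kelch-like protein, and its 8 probesets at level were all above 0, with a median of 2.17 ± 1.04 (SD between probesets). Ass1 makes argininosuccinate, a step of arginine synthesis. The cluster Gm5424/Ass1 had 1645 after TGF-beta and 398 untreated (2.04), which were the values of the 1 probeset naming Gm5424 alone. The 17 probesets at level that name both genes had a median of 1738 after TGF-beta and 179 untreated, a median difference of 3.44 with a range between 2.44 and 3.87. The gene-level cluster thus lay below all 17 probesets that the genes share.

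Apol9b/Apol9a appeared in 2 clusters. The higher had 363 after TGF-beta and 93.1 untreated (1.95), the other 305 and 235 (0.37). The other carried the values of 1 shared probeset, whereas the 2 probesets of Apol9b alone had 483 and 374 after TGF-beta, against 70.1 and 99.1 untreated. No probeset of Apol9a alone was at level. Ctla2a/Ctla2b had 268 and 74.6 (1.83). Here each gene could be followed by 2 probesets of its own at level, with median differences of 2.29 for Ctla2a and 2.32 for Ctla2b, so both members of this cathepsin-inhibitor pair were higher.

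Alpha-tubulin, the building block of microtubules, showed how a cluster can follow 1 member. Tuba1a/Tuba1c/Gm5620 had 8059 after TGF-beta and 2367 untreated (1.77), identical to a probeset of Tuba1a. The other Tuba1a probeset gave 1.48. The 5 probesets of Tuba1c had a median of 11831 after TGF-beta and 13268 untreated, with a difference of -0.05 ± 0.23 (SD between probesets). The 7 shared probesets had a median of 0.04. The cluster was therefore higher by the probesets of Tuba1a, and its brighter relative Tuba1c stayed within 2-fold in all 5 probesets.

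Septin5/Gp1bb had 282 after TGF-beta and 126 untreated (1.16). The septin forms filaments at the cell cortex, and Gp1bb codes for a subunit of a platelet adhesion receptor. All 7 shared probesets at level were at least 2-fold higher, with a median of 1.76. Septin5 alone had 1.12 over 2 probesets and Gp1bb alone 0.32 over 1. Cd1d1/Cd1d2, which present lipid antigens, had 201 and 90.5 (1.14), and 2 Cd1d2 probesets gave a median of 0.96. Just under the rule lay Nrp2/Pard3b, with 2948 after TGF-beta and 1499 untreated (0.98).

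**Figure D2:**
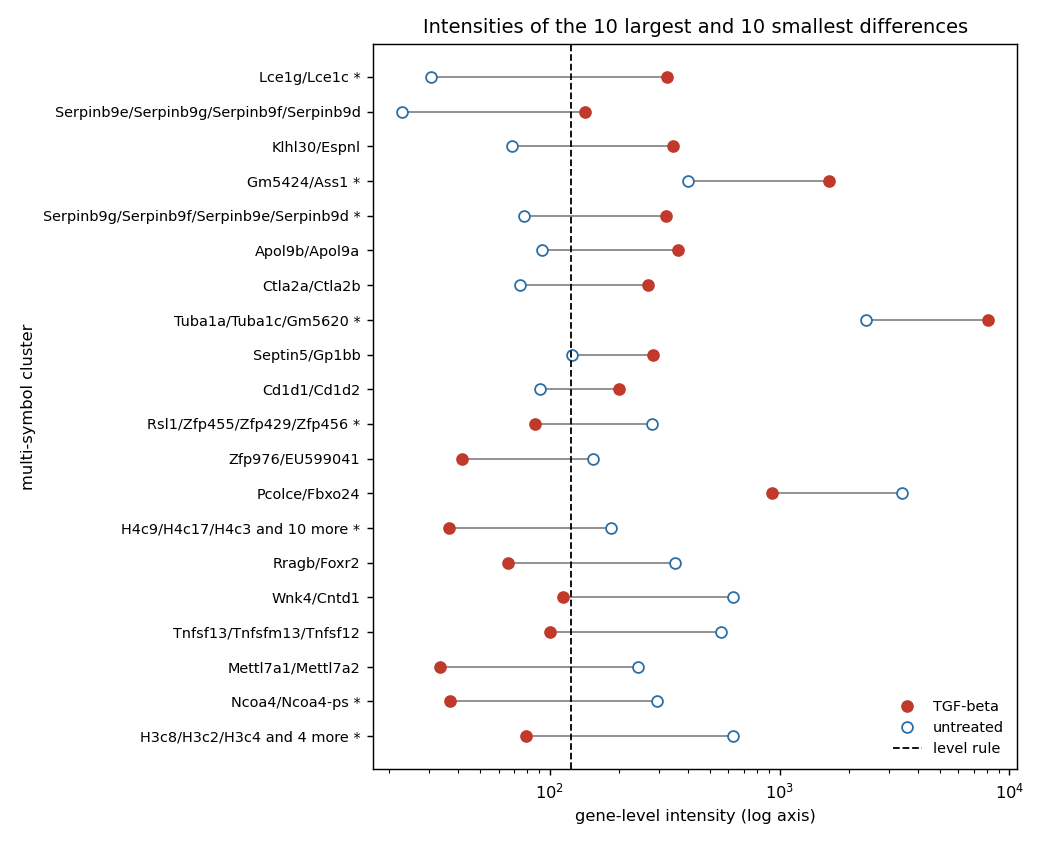
Gene-level intensity on a log axis in TGF-beta-treated cells (filled red) and untreated cells (open blue) for the 10 highest and the 10 lowest differences; the dashed line is the level rule of 124. An asterisk marks clusters whose values are those of 1 exon-level probeset, 4 among the 10 largest and 4 among the 10 smallest, and most dim partners lie left of the line.

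At the other end, the cluster led by the histone gene H3c8 had 78.8 after TGF-beta and 626 untreated (-2.97). Its values were those of a single probeset without a gene symbol. The 6 shared H3 probesets at level, with medians of 14001 after TGF-beta and 16514 untreated, had a median of only -0.26. Ncoa4, a receptor that delivers ferritin to lysosomes, gave a like case. The Ncoa4/Ncoa4-ps cluster had 36.7 and 292 (-2.96), which was the dim extreme of 23 shared probesets at level with a median of -1.06. All 23 were below 0 and 15 were at least 2-fold lower, so the direction held across the gene while the size did not.

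Mettl7a1/Mettl7a2 had 33.3 after TGF-beta and 243 untreated (-2.83), and 3 probesets of Mettl7a1, a methyltransferase-like protein, had a median of -2.78 ± 0.48 (SD between probesets). The 3 probesets at level that both genes share were also at least 2-fold lower, but with a median of -1.82. The cluster departed from that median by -1.01. The Tnfsf12 and Tnfsf13 genes code for the cytokines TWEAK and APRIL and are joined by the read-through gene Tnfsfm13. Their 2 clusters had 101 after TGF-beta and 559 untreated (-2.46), and 393 and 1007 (-1.35). The 1 Tnfsf12 probeset at level had 523 and 1428 (-1.45).

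Among neighbours, Wnk4/Cntd1 had 115 after TGF-beta and 628 untreated (-2.44). Wnk4 is a kinase that regulates ion transporters. All 22 shared probesets at level were below 0, 18 of them at least 2-fold, with a median of -2.52. The 1 probeset of Cntd1 alone at level had 320 and 274 (0.23), and the single-symbol Cntd1 cluster was below level. Rragb/Foxr2 had 66.1 and 350 (-2.39), with all 9 shared probesets at least 2-fold lower. Rragb is a Rag GTPase of the amino acid pathway to mTORC1. Pcolce/Fbxo24 had 927 after TGF-beta and 3427 untreated (-1.88). Pcolce enhances the trimming of procollagen, and its 12 probesets at level lay between -2.72 and -1.60, with a median of -2.05 ± 0.40 (SD between probesets). Of the 10 smallest differences it was the 1 with both arrays above the level rule. Zfp976/EU599041 had 41.5 and 155 (-1.88), and no probeset of either gene alone was at level.

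The remaining lower clusters, described after their values were seen, held genes of many kinds. Cp/Rex2 had 692 after TGF-beta and 1996 untreated (-1.53), where Cp is ceruloplasmin, the copper-carrying ferroxidase. Creg1/Pappa2 had 1030 and 2648 (-1.36). Cth/Rpl32l had 221 and 493 (-1.15), where Cth makes cysteine from cystathionine, and Per2/9830107B12Rik, with a gene of the circadian clock, had 153 and 338 (-1.13). All 4 lay in the class of other combinations. Among the 594 clusters below level, 20 were 2-fold higher and 23 lower. Of all 23332 clusters, 461 were higher and 2309 lower, and 276 and 1233 of these were among the 12484 at level. An example below level is C1s1/C1s2, complement proteases, with 16.2 and 115 (-2.75). Such values are too dim to order.

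Zinc finger genes of the Zfp name, most of them DNA-binding repressors encoded in tandem arrays, formed the largest family at level. All 25 multi-gene Zfp clusters at level had differences below 0, with a median of -0.73 and a range between -1.67 and -0.06. Of them 5 were at least 2-fold lower. Of 165 single-symbol Zfp clusters at level, 142 were below 0 and 14 at least 2-fold lower, with a median of -0.34. Centred, 23 of the 25 multi-gene clusters stayed below 0 with a median of -0.46, while the single-symbol median became -0.06. The calls of at least 2-fold lower became 1 among the multi-gene clusters and 4 among the single-symbol ones when centred, and 2 and 5 after quantile normalization. After quantile normalization the medians were -0.46 and 0.0047, so the sign of the single-symbol median turned under that scaling. The multi-gene clusters were dim, with a median of 122 after TGF-beta and 202 untreated.

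The lowest was Rsl1/Zfp455/Zfp429/Zfp456, with 86.6 after TGF-beta and 278 untreated (-1.67). Rsl1 is known in mice as a repressor of male-specific liver genes. The values were those of a probeset of Zfp455 alone, and 2 brighter probesets that several of the genes share had a median of -0.06. Zfp97/BC002059/Zfp960 had 78.9 and 190 (-1.25), and a probeset of BC002059 alone had 191 and 458 (-1.26). In Zfp111/Zfp108/Zfp114/Zfp93, with 206 and 461 (-1.16), the 4 probesets of Zfp111 at level had a median of -1.27, and the 2 of Zfp93 a median of -0.29. Zfp60/Zfp780b/Zfp607a had 93.9 and 202 (-1.10), beside a single-symbol Zfp60 cluster with 92.8 and 182 (-0.96). Over the 9 Zfp clusters with at least 3 shared probesets at level, the median of the clusters' shared-probeset medians was -0.28. Some sets of probesets entered it for more than 1 cluster, such as that of Zfp110 and Zfp369.

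Histones, the spools of chromatin, are made in bulk during S phase from near-identical intronless genes. Of the 16 multi-gene histone clusters at level 14 were below 0 and 5 at least 2-fold lower, with a median of -0.75. They include Xk/H2al1m/H2al1o/H2al1n (-0.89), which lists Xk beside histone genes and had 0 of 5 shared probesets at level. Of 16 single-symbol histone clusters 13 were below 0 and 4 at least 2-fold lower, with a median of -0.39. The 2 sets differ in the genes they list, so their medians are not like for like. Over all clusters at level 9.88% were lower. The multi-gene median was -0.48 centred, -0.47 after quantile normalization and -0.51 after the lowess trend was removed. The single-symbol median was -0.12, -0.13 and -0.15 in that order. Centred, 4 multi-gene and 1 single-symbol histone clusters were at least 2-fold lower. Values of 1 probeset stood for 10 of the 16. For each of the 14 clusters with at least 3 shared probesets at level, the median of those probesets was taken. The median of these cluster medians was -0.43, near the -0.39 of the single-symbol clusters as deposited. The 4 H4 clusters entered it with the same 13 probesets, so it is not a median over separate probesets.

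The 4 clusters that list the same 13 H4 genes differed widely. The H4c9-led cluster had 36.6 after TGF-beta and 185 untreated (-2.31), and the H4f16-led one 318 and 852 (-1.42). The H4c8-led one had 1293 and 2338 (-0.85), and the H4c4-led one, the brightest multi-gene cluster of all, had 12965 and 16786 (-0.37). The order of brightness was thus the order of the differences, with the brightest nearest 0. The 15 probesets shared by these genes were also spread: 10 with untreated intensities of at least 10436 differed by -0.49 to -0.22, and 2 with 1647 and 4366 untreated lay between -1.34 and -1.18. The 3 with untreated intensities of at most 852 ran between -2.31 and 0.70, the last from a probeset with 18.8 after TGF-beta and 11.2 untreated, below level, so the dimmest probesets had no common direction. H4c14 alone had 841 and 1930 in its own cluster (-1.20), whereas the 1 probeset of H4c12 had 8383 and 11141 (-0.41). What sets the dim and the bright probesets apart was not tested.

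Among the H3 genes, the H3c14/H3c15 cluster had 228 after TGF-beta and 697 untreated (-1.61), which are the values of a probeset of H3c15. A second cluster of the same genes had 144 and 200 (-0.47). An H2A cluster led by H2ac4 had 1530 and 3063, just past the 2-fold rule, which were the values of 1 probeset. The 10 shared probesets of its genes at level had a median of -0.18. The variant genes H3f3a and H3f3b, which are made outside S phase as well, had 4322 and 4780 (-0.15) in their brighter cluster. The 2 histone clusters above 0 were the H2ac18-led one (0.23) and Macroh2a3/Macroh2a2 (0.37).

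**Figure D3:**
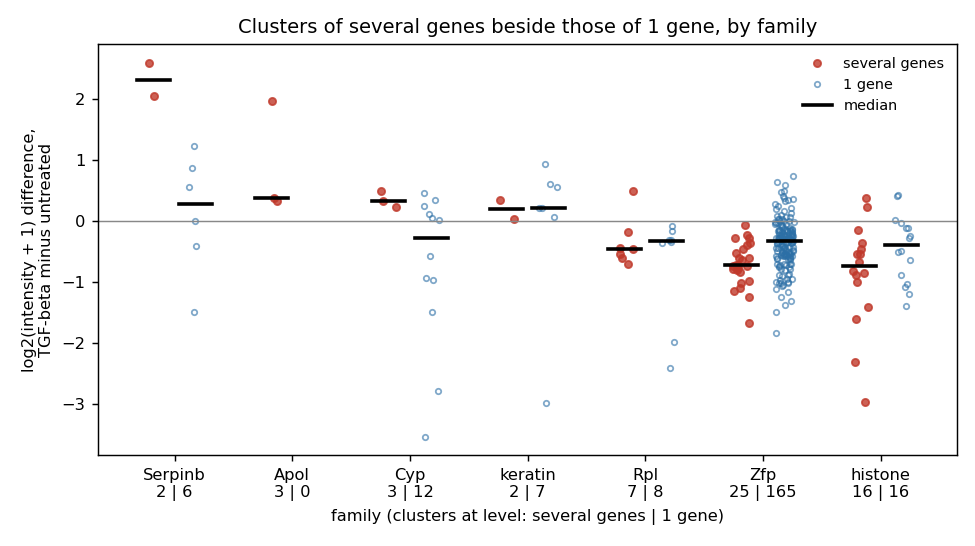
Log2(intensity + 1) differences, TGF-beta minus untreated, of clusters of several genes (filled red) and of 1 gene (open blue) in 7 families, with black lines at the medians and the number at level under each family. All 25 multi-gene Zfp clusters lie below 0 and both multi-gene Serpinb clusters lie above 2. A cluster that passed the level rule on 1 array only could lie on 1 side of 0 alone.

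Ribosomal protein genes have many processed pseudogenes, marked by the ending -ps in a symbol. The 7 Rpl clusters had a median of -0.47, and 0 of them passed 2-fold in either direction. The 6 Rps clusters had a median of -0.32, which turned to 0.07 after quantile normalization and 0.03 after the lowess trend was removed. Rpl38/Rpl38-ps2 had 403 after TGF-beta and 662 untreated (-0.72), and Rpl30 with its copies had 486 and 740 (-0.61). The 8 shared probesets of each had medians of -0.06. Rpl26/Rpl26-ps2 stood above 0 with 507 and 360 (0.49), the values of 1 of 8 Rpl26 probesets, whose median was -0.24. Rps13/Rps13-ps1 was the 1 that passed 2-fold, with 54.1 and 126 (-1.21), while the 10 shared probesets, with medians of 4499 and 4616, gave -0.09. Rps15a/Rps15a-ps2 had 252 and 420 (-0.74), with a median of -0.40 over 6 Rps15a probesets.

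The Ugt1a genes code for enzymes that conjugate bilirubin, hormones and drugs with glucuronic acid, and they share their last exons while each has a first exon of its own. Their cluster of 8 genes had 485 after TGF-beta and 1341 untreated (-1.47). All 15 shared probesets at level were below 0 and 14 at least 2-fold lower, with a median of -1.56. Of the first-exon type of probeset that names 1 gene, only that of Ugt1a5 was at level, with 22.5 and 313 (-3.74).

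Class I genes of the major histocompatibility complex present peptides to T cells. The cluster led by H2-D1 had 289 after TGF-beta and 725 untreated (-1.33). Its genes could be told apart: 8 probesets of H2-D1 had a median of -0.41 ± 0.89 and 7 of H2-K1 a median of -1.02 ± 0.73 (SD between probesets), a gap smaller than either spread. H2-T10/H2-T22 had 499 and 846 (-0.76), the values of a probeset of H2-T10, while 3 shared probesets at level had a median of 0.02. Another cluster, which lists H2-Q genes beside Dync2h1 and Impg1, had 139 and 86.1 (0.69), the values of 1 probeset. Its 5 shared probesets at level had a median of -0.45, of the opposite sign.

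Clusters of several further families lay within 2-fold. The 3 Cyp clusters at level, cytochrome P450 genes, were all above 0, the highest being Cyp4f16/Cyp4f40/Cyp4f17 with 1663 after TGF-beta and 1185 untreated (0.49). The 11 probesets of Cyp4f16 at level had a median of 0.48, and the 3 of Cyp2d40 a median of 0.91. The 12 single-symbol Cyp clusters at level differed from that, with 6 below 0, a median of -0.29 and 3 at least 2-fold lower. The lowest, Cyp2s1, had 137 and 1601 (-3.54). Krt90/Krt80/Krt83 had 181 and 143 (0.34), and Krt7/Krt86 had 249 and 244 (0.03). The kallikrein protease cluster Klk1b21/Klk1b24/Klk1b11/Klk1b27 had 185 and 116 (0.67), and Klk1b5/Klk1 had 105 and 155 (-0.56). Apol7b/Apol7e, unlike Apol9, had 135 and 108 (0.32). Among olfactory receptors the differences ran between -0.77 and 0.80, with Olfr1337 and 4 relatives at 128 and 72.9 and Olfr1508/Olfr1507 at 214 and 125 (0.77). The Olfr1333-led cluster had 157 and 269 (-0.77), whereas its 3 shared probesets at level had a median of 0.36, of the opposite sign. All 3 of these Olfr clusters had the values of 1 probeset. Ndufa10/Olfr1415/Olfr1416, with 2342 and 2961 (-0.34), lay near the 11 probesets of the respiratory chain gene Ndufa10, with a median of -0.32. No probeset of Olfr1416 alone was at level.

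The brightest clusters differed little. Tecr/Fthl17a had 9712 after TGF-beta and 9749 untreated (-0.01), and the 14 probesets of Tecr, a reductase of very long fatty acid synthesis, had a median of -0.02. Cox6c/Cox6c2, a subunit of cytochrome oxidase, had 9087 and 10005 (-0.14). Rps14/Gm5805 had 8185 and 9215 (-0.17), and Cd24a/Gm6212, a surface glycoprotein, had 8083 and 8392 (-0.05). After centring these 4 were above 0, between 0.10 and 0.27.

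The exon level shows how often a cluster can be assigned at all. With at least 3 probesets of its own at level needed for a gene, 141 of the 425 clusters had no gene that could be followed, 204 had 1 and 80 had 2 or more. Paralogs were told apart least often, in 16 of 136 clusters, beside 28 of 174 neighbour clusters and 36 of 97 of the other combinations. Of all 9612 genes with enough single-symbol probesets, 2.57% had a median of 1 or more and 8.19% one of -1 or less.

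In the 80 clusters with 2 genes told apart, the median gap between the genes was 0.37, and in 22 of them 1 gene was above 0 and another below. The gap reached 1 in 6 clusters, of which 5 combined genes that were neither paralogs nor neighbours and 0 were paralogs. In 65 of the 80 the cluster lay nearest to the gene listed first. In 36 of the 80 the gene farthest from the cluster also had a single-symbol cluster of its own.

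The widest gap, 1.84, was between Neil3 and Tnfrsf13c, whose cluster had 302 after TGF-beta and 621 untreated (-1.04). Neil3, a glycosylase of DNA repair, had a median of 340 after TGF-beta and 718 untreated over 11 probesets (-1.21 ± 0.35, SD between probesets), all of them below 0. Tnfrsf13c, the receptor for the B-cell factor BAFF, had 445 and 256 over 10 probesets (0.63 ± 0.42), 9 of them above 0. The cluster lay with Neil3, and its sign is opposite to that of Tnfrsf13c.

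Pigb/Ccpg1 had 526 after TGF-beta and 1155 untreated (-1.13). Pigb, a mannosyltransferase for membrane anchors, had a median of -1.16 over 23 probesets, and Ccpg1, a receptor for turnover of the endoplasmic reticulum, -0.02 over 11. The single-symbol Ccpg1 cluster had 299.9 and 304 (-0.02). Med29/Ranbp17 was the 1 of the 6 that lay nearest to its second gene. It had 132 and 300.3 (-1.18), with -1.21 over 16 probesets of Ranbp17, a RAN-binding transport factor, and -0.09 over 8 of the Mediator subunit Med29.

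Zranb3/Bnip3l had 218 after TGF-beta and 452 untreated (-1.05). The 15 probesets of Zranb3, a helicase of stalled replication forks, were all below 0 with a median of -0.97. The 8 of the mitophagy receptor Bnip3l were far brighter, with medians of 6079 and 5723, and had 0.13. Pam/Btf3 had 795 and 1544 (-0.96): the 27 probesets of Pam, an enzyme that amidates peptide hormones, were all below 0 with a median of -1.01, and the 10 of Btf3 had 0.02. Tcp11/Tsen34 was the 1 above 0, with 133 and 97.2 (0.44). The testis gene Tcp11 had 0.80 over 4 probesets, and Tsen34, a subunit of the tRNA splicing endonuclease, -0.24 over 7.

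The other gaps were narrower. Nr1d1 and Thra are neighbours on opposite strands whose ends overlap. Their cluster had 1561 after TGF-beta and 1291 untreated (0.27), Nr1d1, a repressor of the circadian clock, had 0.32 over 9 probesets, and the thyroid hormone receptor Thra had -0.55 over 13. The single-symbol Thra cluster had 473 and 760 (-0.68). Zfp638/Dysf had 266 and 408 (-0.61), with -0.49 over 25 probesets of Zfp638 and 0.42 over 6 of the membrane-repair gene Dysf. Ctdspl2/Eif3j1 had 849 and 1595 (-0.91), the exact values of a Ctdspl2 probeset, while 13 probesets of the translation factor Eif3j1 had a median of -0.14. Zfyve1/H2az1 had 716 and 633 (0.18), with 0.24 over 13 Zfyve1 probesets and -0.52 over 8 of the histone variant H2az1. Otud7a/Thrap3 had 167 and 126 (0.41), with 0.52 and -0.25 for the genes as listed, and Macroh2a3/Macroh2a2 had 127 and 97.9 with 0.54 and -0.26.

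**Figure D4:**
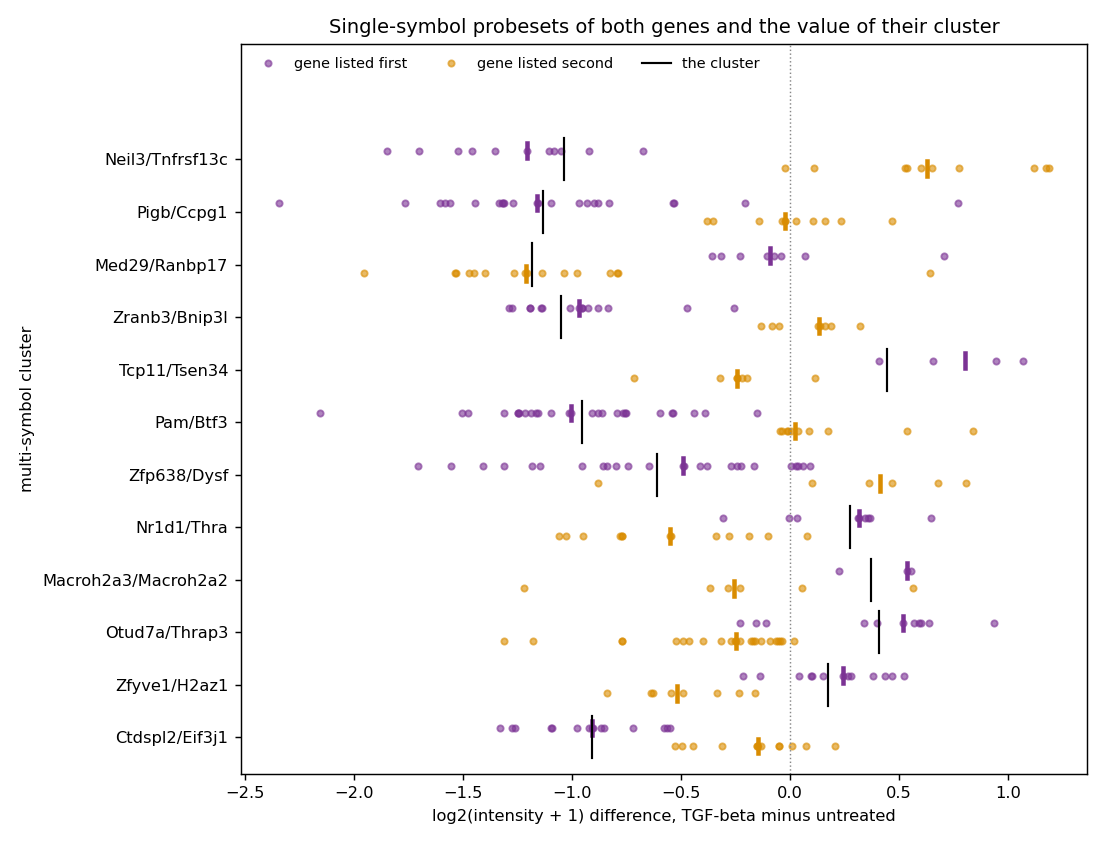
Log2(intensity + 1) differences, TGF-beta minus untreated, of the single-symbol probesets at level of both genes (points, thick bars at their medians) and of the cluster that lists them (black line), for the 12 widest gaps between genes. In 11 of the 12 the cluster lies nearest to the gene listed first; Med29/Ranbp17 lies with Ranbp17.

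In the 204 clusters with 1 gene followed, the cluster and the median of the gene differed by a median of 0.083 in size, beside 0.052 in 8341 single-symbol clusters. They differed by at least 1 in 3 of the 204, beside 26 of the 8341. Apart from the tubulin cluster these were chosen after their values were seen. Golt1a/Kiss1 had 260 after TGF-beta and 216 untreated (0.27), whereas 5 probesets of Golt1a had a median of -1.36. Agk/Tmem178b had 1787 and 1413 (0.34), whereas 12 probesets of Agk, a lipid kinase of mitochondria, had a median of -0.70. The values of that cluster were those of 1 probeset naming Agk alone, so they are not a reading of Tmem178b.

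Of the 425 clusters, 67 (15.8%) had the deposited intensities of a single exon-level probeset on both arrays, digit for digit. The share was 1.98% in single-symbol clusters at level and 21.9% in all clusters at level, which include those without a symbol. Paralogs made up 48 of the 67. The probeset named 1 gene of the cluster in 44, several genes in 17, no gene in 5 and another symbol in 1. Such a cluster and its probeset are 1 measurement and not independent readings. Of these 67 clusters 4 were called higher and 11 lower, beside 2.21% and 9.88% of all clusters at level.

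For 144 clusters, at least 3 probesets at level listed several of the cluster's own genes. The median gap between such shared probesets and the cluster was 0.21 in size, and in 12 (8.33%) it reached 1. The H3c8-led cluster departed by -2.71, Ncoa4/Ncoa4-ps by -1.89 and the H4c9-led cluster by -1.88, and the tubulin cluster by 1.73. Serpina1, the family of alpha-1-antitrypsin, was chosen after its values were seen: its cluster had 90.6 after TGF-beta and 127 untreated (-0.48), whereas 17 shared probesets had a median of -2.11.

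**Figure D5:**
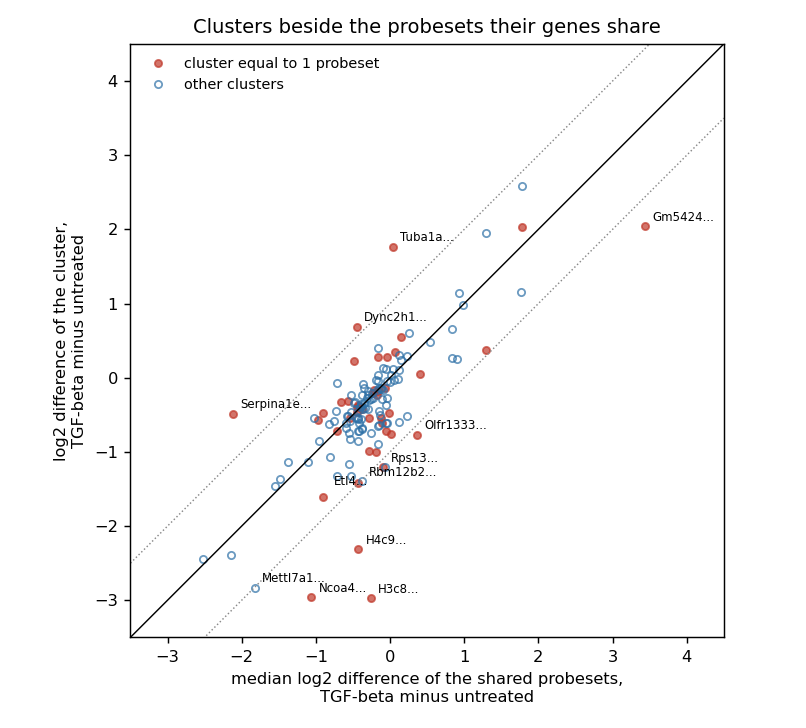
Log2 difference, TGF-beta minus untreated, of 144 multi-symbol clusters (vertical) against the median difference of at least 3 probesets that their genes share (horizontal), with equality as a solid line and a gap of 1 dotted. The 12 clusters beyond the dotted lines carry the name of their first gene, and filled points are clusters with the values of 1 probeset.

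The same genes were listed by more than 1 cluster in 80 sets, which held 168 clusters. In 16 of these sets at least 2 clusters were at level, and the median range between them was 0.66. The range reached 1 in 4 sets, those of H4, Apol9, H3c14 and Tnfsf12. In 3 sets the clusters had opposite signs. Neighbouring genes could also be compared by strand. Of 174 neighbour clusters at level, 118 had promoter windows for both of the first genes listed: 105 pairs lay on the same strand and 13 on opposite strands, and in 11 the windows overlapped.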

How the data were processed

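RNA of NMuMG cells was measured on Affymetrix mouse exon arrays, and the authors deposited an intensity for each gene-level transcript cluster and each exon-level probeset, on a linear scale, from core probesets per the labels' series design. The background correction, normalization and probe annotation behind these values were not given in the sources used here. Gene symbols came from the platform annotation, and 2449 of 2541 symbols matched a current gene by gene ID. The gene-level and exon-level values of a condition share exact values, as described above, and were not used as replicates of each other. Values were compared as log2(intensity + 1), without further scaling, at 1 array a condition, so no test was run. Paralogs were recognised by their symbols, because no protein sequences were used. Their symbols shared a stem of at least 3 letters, or a prefix of at least 3 characters with at most 2 characters after it. A gene and its -ps copy also counted. Provisional symbols, such as Gm and Rik names, never counted as paralogs, so Gm5424/Ass1 and Rps14/Gm5805 stand among the other combinations. Neighbours were recognised by gene order in RefSeq. Genes were told apart with at least 3 single-symbol probesets at level each.

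Described by name were the 10 largest and 10 smallest differences, up to 4 clusters of each paralog family with at least 4 clusters, up to 12 with the widest gap between genes, the 5 brightest, and the single-symbol probesets and clusters of their genes. Other names (Nrp2/Pard3b, the further histone, Serpinb and Tnfsf clusters, and those marked so in the text) were chosen after their values were seen. Members and lists were chosen with earlier results of these data known. Alternatives were other level rules, centring, quantile normalization, a lowess trend (fraction 0.3), a pseudocount of 16 and a minimum of 5 probesets. Python 3.11.15, pandas 2.3.3, numpy 2.4.6, statsmodels 0.14.6 and Biopython 1.88 were used, and the calculations were tested on simulated data.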

Additional observations from a re-analysis of the deposited data

How the results depend on the processing

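No paired analysis was possible because each condition had 1 array. Against 10 of 425 clusters called higher and 47 lower, 30 of 1019 were higher without a level rule. The 594 multi-gene clusters that this setting added held 20 higher and 23 lower. Without that rule 461 of all 23332 clusters were higher and 2309 lower. The stricter level rule at the 75th percentile gave 2 higher and 16 lower of 203, beside 138 and 410 of all 6534. The rule on both arrays gave 3 higher and 25 lower of 357, beside 182 and 713 of all 10848. Lower calls numbered 22 after centring, 25 after quantile normalization and 28 after removing a lowess trend. Over all 12484 clusters at level they numbered 646, 697 and 775 in that order, beside 1233 as deposited. The median of all multi-gene clusters was -0.051 without a level rule, -0.041 centred, -0.054 after quantile normalization and -0.074 after lowess. For paralog clusters it was -0.026 without a level rule, -0.28 with both arrays at level, -0.11 centred, -0.14 after quantile normalization and -0.18 after lowess. For neighbour clusters it was -0.10 without a level rule, 0.00064 centred, -0.0096 after quantile normalization and -0.018 after lowess. The 6 clusters whose genes differed by at least 1 at exon level became 15 without a level rule, 1 at the 75th percentile, and 3 each with both arrays at level, after quantile normalization and after lowess. Of the 68 clusters chosen for description, some near 0 changed sign. Wdfy2/Defb43/Defb47 (-0.07, 260 after TGF-beta and 273 untreated) became 0.20 centred, 0.32 after quantile normalization and 0.27 after lowess. Rps19/Rps19-ps2 (-0.21) became 0.063, 0.20 and 0.15 in the same order. Centring also turned Tecr/Fthl17a to 0.27, Cox6c/Cox6c2 to 0.13, Rps14/Gm5805 to 0.10 and Cd24a/Gm6212 to 0.22. Direction and side of 2-fold were kept by 52 of the 68 after centring (8 lost the 2-fold call, 2 gained it, 6 turned), by 58 after quantile normalization (7 lost, 1 gained, 2 turned), by 60 after lowess (6 lost, 2 turned) and by 67 with a pseudocount of 16 (1 lost). The calls lost by centring were Rps13/Rps13-ps1 (-0.93), Neil3/Tnfrsf13c (-0.76), Pigb/Ccpg1 (-0.86), Med29/Ranbp17 (-0.91), Zranb3/Bnip3l (-0.78), Zfp97/BC002059/Zfp960 (-0.98), Zfp111/Zfp108/Zfp114/Zfp93 (-0.89) and Zfp60/Zfp780b/Zfp607a (-0.83). With 1 array a condition, the spread between cultures is unknown, and values under the level rule on 1 side limit the size of most of the largest differences.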
